A study of Mus musculus with 15 samples.

Results

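The tight junction genes described here were 7 claudins (Cldn1, Cldn2, Cldn3, Cldn4, Cldn6, Cldn7 and Cldn12), occludin (Ocln) and the scaffold gene Tjp1. They were taken by name from a table of 24493 genes, held 9 of its rows, and all 9 passed the filter on low values that left 13905 genes for testing. RNA was sequenced from sorted mouse liver cells in 15 libraries, which formed 5 groups of 3. Untreated mice gave hepatocytes and biliary cells. DDC is a compound mixed into chow to injure the liver and its ducts, and mice on it gave hepatocytes, cells labelled as reprogrammed, and biliary cells. Per the labels, AAV-TBG-Cre was injected at 4 weeks of age in the mice of every group, so all 5 groups share it. This virus carries Cre under a hepatocyte promoter and served to mark cells. DDC chow began at 5 weeks of age and lasted 4 weeks, and the cells were sorted from the liver without culture. The labels state neither the markers used for sorting nor that libraries of a group came from separate animals, so the p-values reflect only how far these libraries differ from each other, which may be technical.

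A tight junction closes the space between neighbouring epithelial cells near their apical side. Claudins are membrane proteins that form its strands: some, such as claudins 1 and 3, seal the gap, and claudin 2 forms a pore for small cations and water. Occludin is a further membrane protein of the junction, and Tjp1 codes for ZO-1, a cytoplasmic scaffold that ties the strands to actin. In the liver these junctions keep bile apart from blood, both around the canaliculi between hepatocytes and along the ducts lined by biliary cells.

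Levels are given as scaled TPM. TPM measure the relative abundance of transcripts within a library, corrected for their length, and the deposited values were divided by 1 factor per library that brings the median gene to the same level. Within a group, values are given in the order of library numbers 1, 2 and 3, and means with their SD (n = 3). Each log2 difference compares group means of log2(scaled TPM + 1), which shrinks the change of genes at low levels, with standard errors and Benjamini-Hochberg adjusted p-values from limma over all genes tested. A gene was called higher or lower where its adjusted p fell below 0.05 and its log2 difference reached 1 in size. Libraries of compared groups often did not overlap. Of all genes tested, 43% lay above and 34.5% below without overlap in untreated biliary cells against hepatocytes. Between the DDC cell types these shares were 36.1 and 28.5%. For reprogrammed cells they were 28.1 and 20.7% against DDC hepatocytes, and 15.1 and 17% against DDC biliary cells. The scaling matters between cell types. Relative to scaled values, TPM as deposited moved the median gene on the log2 scale up by 0.98 in untreated biliary cells against hepatocytes, by 0.92 between the DDC cell types and by 0.65 in reprogrammed cells against DDC hepatocytes. Directions below are therefore relative to the median gene. How deeply each library was sequenced is unknown, as TPM hold no totals of reads. Between 10231 and 11088 genes had at least 1 TPM in the hepatocyte libraries, and between 12553 and 13636 in the biliary and reprogrammed libraries.

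The labels were checked on markers. The 8 biliary markers summed to 20.4 to 26.4 scaled TPM in untreated hepatocytes, where 1 of them, Krt7, was listed at 0, and to 288 to 608 in DDC hepatocytes. They summed to 10600 to 12200 in untreated biliary cells, 4680 to 11000 in the reprogrammed libraries and 8310 to 13200 in DDC biliary cells. The 10 hepatocyte markers summed to 157000 to 177000 in untreated and 79900 to 160000 in DDC hepatocytes. In the other groups none of these 10 was at 0, and they summed to 31300 to 40800 in untreated biliary cells, 25100 to 80200 in the reprogrammed libraries and 13900 to 31600 in DDC biliary cells. Markers of stellate cells and fibroblasts, 8 genes, summed to 1.36 to 5.34 and 14.1 to 22.7 in the hepatocyte groups, 123 to 139 in untreated biliary cells, 276 to 434 in the reprogrammed libraries and 392 to 627 in DDC biliary cells. The 5 mesothelial markers summed to at most 1.23 in hepatocytes and to between 47.7 and 151 elsewhere. The part of these other cells in the values below was not tested.

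In the GENCODE annotation of GRCm38, all 9 genes are protein-coding, and Cldn3 and Cldn4 are neighbours. Cldn4 lies on the minus strand (chromosome 5, 134945119 to 134946934) and Cldn3 on the plus strand (chromosome 5, 134986214 to 134987472), with 39279 bases between them. Of the exonic bases of Cldn3, 40 also belong to the antisense gene Wbscr25, and no source used here says whether the counting used strand. The other members lie apart: Cldn1 (chromosome 16, 26356642 to 26371841), Cldn2 (chromosome X, 139800828 to 139811386), Cldn6 (chromosome 17, 23679249 to 23682446), Cldn7 (chromosome 11, 69964779 to 69967885), Cldn12 (chromosome 5, 5489537 to 5514958), Ocln (chromosome 13, 100496507 to 100552718) and Tjp1 (chromosome 7, 65296165 to 65527781). At most 1.22% of the stretches of 31 bases in a member's transcripts, the figure for Cldn3, occurred in another gene.

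The 250 bases before the start site are shown for 4 claudins: the neighbours Cldn4 and Cldn3, then Cldn7, which was high in the same groups as Cldn4, and Cldn2, which differed between treated and untreated biliary cells. They are from RefSeq (GRCm38.p6), written 5′ to 3′ along the gene's strand. Cldn4 is chr5:134946935-134947184 on the minus strand, Cldn3 is chr5:134985964-134986213 on the plus strand, Cldn7 is chr11:69964529-69964778 on the plus strand for the first of 2 listed starts, and Cldn2 is chrX:139800558-139800807 on the plus strand. Capitals mark matches on either strand to CAGGTG (an E-box bound by Snail family repressors), GGAATG (TEAD), TGANTCA (AP-1) and GGGCGG (the GC box of SP and KLF factors).
Cldn4: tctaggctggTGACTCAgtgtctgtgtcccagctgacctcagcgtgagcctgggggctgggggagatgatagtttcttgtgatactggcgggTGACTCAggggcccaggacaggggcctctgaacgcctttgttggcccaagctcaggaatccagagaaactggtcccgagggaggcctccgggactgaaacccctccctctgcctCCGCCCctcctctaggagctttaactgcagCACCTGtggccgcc
Cldn3: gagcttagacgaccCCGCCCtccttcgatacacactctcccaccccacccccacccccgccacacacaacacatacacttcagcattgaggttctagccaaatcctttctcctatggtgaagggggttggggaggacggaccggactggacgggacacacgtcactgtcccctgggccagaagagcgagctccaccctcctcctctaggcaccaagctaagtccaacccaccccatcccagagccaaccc
Cldn7: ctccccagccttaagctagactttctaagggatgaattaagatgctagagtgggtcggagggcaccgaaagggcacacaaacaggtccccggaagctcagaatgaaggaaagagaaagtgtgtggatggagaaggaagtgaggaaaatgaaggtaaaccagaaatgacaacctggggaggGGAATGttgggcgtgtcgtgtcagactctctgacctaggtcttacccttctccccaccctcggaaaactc
Cldn2: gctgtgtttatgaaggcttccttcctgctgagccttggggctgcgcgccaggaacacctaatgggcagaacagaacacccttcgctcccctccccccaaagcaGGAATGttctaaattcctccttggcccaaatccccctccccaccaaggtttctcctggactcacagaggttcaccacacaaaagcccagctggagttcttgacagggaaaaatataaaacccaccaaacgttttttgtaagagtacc
Of these windows, the Cldn4 window held the TGANTCA pattern, at 240 and 158 bases before the start, and a CAGGTG match on the reverse strand at 14 bases before it. The Cldn3 window held a GC box only. GGAATG stood at 70 bases before the Cldn7 start and at 147 bases before the Cldn2 start. Over all 9 members and their 13 windows, CAGGTG was found for 4 (Cldn4, Cldn6, Ocln and the second start of Cldn7), GGAATG for 2, TGANTCA for 1 and GGGCGG for 8, all but Cldn2. Counted by window, these were 4, 2, 1 and 10 of the 13. Among all 32851 windows of this length the shares were 17.2%, 12.6%, 6.75% and 32.7%. The member windows held 42 to 69.2% G and C, and the median over all windows was 52.4%. No member held AACCGGTT (the grainyhead site, 0.116% of all windows), AACNNGTT (3.64%, which includes AACCGGTT) or CAAAGTCCA (an HNF4 site, 0.384%). A match is a description of these letters and not a measured binding site.

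**Figure D1:**
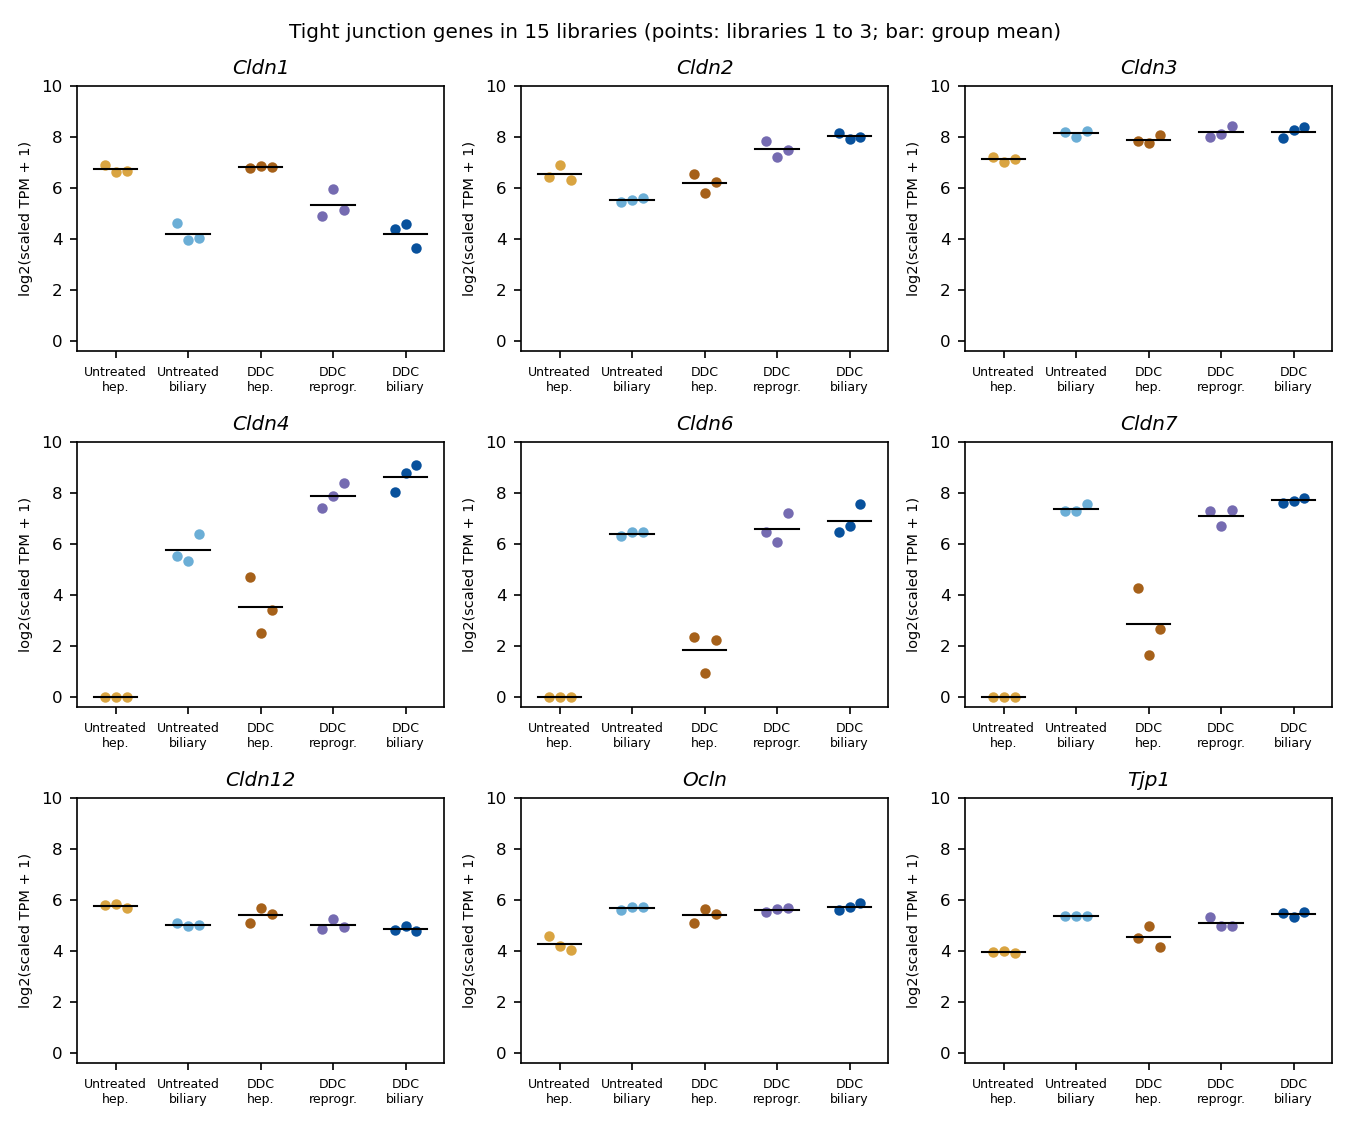
Each panel plots log2(scaled TPM + 1) of a tight junction gene in the 15 libraries (points) of the 5 groups, with the group mean as a bar; hep. stands for hepatocytes and reprogr. for reprogrammed cells. Cldn4, Cldn6 and Cldn7 lie at 0 in all untreated hepatocyte libraries, and Cldn1 is lower in the biliary and reprogrammed groups than in both hepatocyte groups.

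Cldn4, Cldn6 and Cldn7 were the members that separated the cell types most. Cldn4, a claudin of ducts and other simple epithelia, was listed at 0 in all 3 libraries of untreated hepatocytes and at 45.2, 39.8 and 82.0 scaled TPM in untreated biliary cells. In DDC mice it was 25.0, 4.69 and 9.8 in hepatocytes, 171, 232 and 335 in reprogrammed cells and 264, 436 and 543 in biliary cells. The order of the means was DDC biliary (414 ± 141), reprogrammed (246 ± 83.2), untreated biliary (55.7 ± 22.9) and DDC hepatocytes (13.2 ± 10.6), and only the 2 highest groups overlapped. Cldn4 was called higher in untreated biliary cells than in untreated hepatocytes (adjusted p = 3e-07). In reprogrammed cells its mean was 18.7 times that in DDC hepatocytes (log2 difference 4.35, SE 0.47, adjusted p = 1.01e-05), and 34 times without library 1 of the DDC hepatocytes. Between reprogrammed and DDC biliary cells it was not called (log2 difference -0.74, 95% interval -1.76 to 0.28). Cldn4 was called higher with DDC within both cell types. Its mean in DDC biliary cells was 7.44 times that in untreated biliary cells (log2 difference 2.88, SE 0.47, adjusted p = 0.000671), and in DDC hepatocytes it averaged 13.2 where untreated hepatocytes were listed at 0 (adjusted p = 0.000133). In bulk libraries, fewer cells of a type and less RNA per cell cannot be told apart, here and below. Whether an exact 0 in this table means no reads or an estimate set to 0 cannot be told from TPM, and the calls against untreated hepatocytes for Cldn4, Cldn6 and Cldn7 rest on such values.

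Cldn7, whose protein is found along the lateral membrane of many epithelia, was also listed at 0 in each untreated hepatocyte library. It was 158, 157 and 187 in untreated biliary cells. Under DDC it was 18.4, 2.11 and 5.37 in hepatocytes, 155, 102 and 159.7 in reprogrammed cells and 196, 205 and 224 in biliary cells. Every biliary and reprogrammed library was above every hepatocyte library, and the 3 DDC biliary libraries were above all others. Reprogrammed and untreated biliary libraries overlapped. Cldn7 was called higher in biliary cells than in hepatocytes of untreated mice (adjusted p = 2.24e-08) and, among DDC mice, in reprogrammed cells than in hepatocytes (16.1 times the mean; log2 difference 4.24, SE 0.46, adjusted p = 1.01e-05). Without library 1 of the DDC hepatocytes the Cldn7 ratio was 37.1. In contrast to Cldn4, the DDC and untreated biliary groups differed by 0.32 on the log2 scale, which was not called (adjusted p = 0.646). Their libraries did not overlap, but of all genes tested 24.1% lay above and 26.2% below without overlap in this comparison.

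Cldn6, a claudin best known from embryonic epithelia, had the smallest values of the 3 in DDC hepatocytes. It was listed at 0 in untreated hepatocytes and at 78.1, 87.5 and 87.1 in untreated biliary cells. Under DDC it was 4.18, 0.917 and 3.73 in hepatocytes, 87.6, 67.0 and 149.8 in reprogrammed cells and 87.4, 104 and 191 in biliary cells. The 2 biliary groups and the reprogrammed group overlapped each other, and all their libraries were above all hepatocyte libraries. Cldn6 was called higher in untreated biliary cells than in untreated hepatocytes (adjusted p = 1.55e-08), and its mean in reprogrammed cells was 34.5 times that in DDC hepatocytes (log2 difference 4.75, SE 0.38, adjusted p = 6.22e-07). It was not called between DDC and untreated biliary cells (log2 difference 0.51, 95% interval -0.32 to 1.33).

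All 3 genes were called higher in DDC than in untreated hepatocytes, where they were listed at 0 (adjusted p = 0.000133 for Cldn4, 0.000552 for Cldn7 and 0.00316 for Cldn6). With a pseudocount of 5 in place of 1, the adjusted p of Cldn6 was 0.132. Library 1 of the DDC hepatocytes was the highest and library 2 the lowest for each of them. Without library 1, the Cldn7 level of DDC hepatocytes on the log2 scale was 2.18 above that of untreated hepatocytes, against 2.86 with all libraries and 3.51 without library 2. Elf3, an epithelial transcription factor gene, had the same order of libraries, at 36.2, 3.6 and 11.8 scaled TPM against 1.31, 0.755 and 0.78 in untreated hepatocytes (log2 difference 2.75, SE 0.56, adjusted p = 0.00286).

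The level of these claudins in DDC hepatocytes was small beside that in DDC biliary cells and was set beside the biliary markers. In deposited TPM, the mean of DDC hepatocytes as a share of the DDC biliary mean was 1.51% for Cldn4, 1.05% for Cldn6 and 2% for Cldn7. The same share was 0.124% for Krt19, 0.0655% for Krt7, 0.185% for Epcam and 0.531% for Cd24a. It was 2.23% for Spp1, 2.34% for Pkhd1 and 4.58% for Sox9, and the median over all 8 markers of the list was 1.38%. The claudin shares rested on library 1. In libraries 1, 2 and 3 they were 3.03, 0.508 and 0.99% for Cldn4, 1.63, 0.32 and 1.21% for Cldn6 and 4.45, 0.457 and 1.08% for Cldn7. In every library these exceeded the shares of the keratins and Epcam, but their order beside the other markers differed between libraries. Library 2 was also the lowest for Sox9 (5.87, 2.57 and 5.29%), Spp1 (2.59, 1.33 and 2.77%) and Cd24a (0.669, 0.356 and 0.567%). The other named markers had another order, with library 3 the lowest. These were Krt19 (0.128, 0.133 and 0.11%), Krt7 (0.0804, 0.0751 and 0.0409%), Epcam (0.204, 0.178 and 0.174%) and Pkhd1 (3.43, 2 and 1.57%). Of the 8 markers, 4 were called higher in DDC than in untreated hepatocytes, where 6.62% of all genes tested were. The part of biliary RNA in the claudin values of DDC hepatocytes was not tested.

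**Figure D2:**
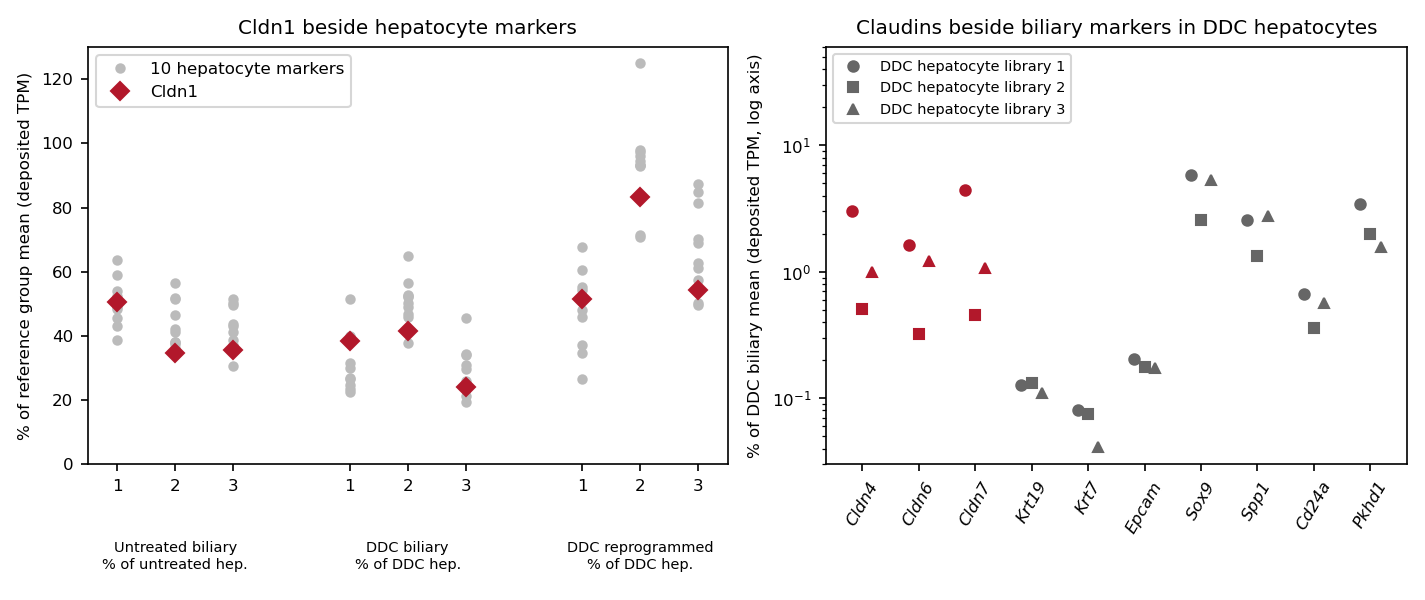
Left, deposited TPM of Cldn1 (diamonds) and of 10 hepatocyte markers (grey points) in each library of 3 groups, as a percent of the mean of hepatocytes of the same treatment; right, on a log axis, 3 claudins and 7 biliary markers in each DDC hepatocyte library as a percent of the DDC biliary mean. The mean of Cldn1 lies within the range of the markers' means in each group, and the means of the 3 claudins lie between Krt7 at 0.0655% and Sox9 at 4.58%.

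Cldn1, a sealing claudin expressed by hepatocytes, ran the other way. It was 119, 98.4 and 100.1 scaled TPM in untreated hepatocytes and 108, 116 and 112 in DDC hepatocytes. It was 23.6, 14.5 and 15.2 in untreated biliary cells, 29.2, 61.8 and 34.4 in reprogrammed and 19.9, 23.0 and 11.4 in DDC biliary cells. The 2 hepatocyte groups overlapped at the top, the 2 biliary groups overlapped at the bottom, and the reprogrammed libraries lay between them without overlap. The mean in untreated hepatocytes was 5.96 times that in untreated biliary cells (log2 difference -2.54, SE 0.28, adjusted p = 4.99e-06), and in DDC hepatocytes 6.18 times that in DDC biliary cells (log2 difference -2.62, SE 0.28, adjusted p = 4.49e-06). Reprogrammed cells were lower than DDC hepatocytes (log2 difference -1.47, SE 0.28, adjusted p = 0.00108). The deposited TPM gave -0.68, under the size for a call. They were higher than DDC biliary cells (log2 difference 1.15, SE 0.28, adjusted p = 0.0202). This difference was 0.847 in TPM as deposited, under the size for a call, and had an adjusted p of 0.121 when only these groups were fitted. Library 2 of the reprogrammed cells was the highest, and without it the adjusted p of this last difference was 0.0867 (log2 difference 0.83). Without library 3 of the DDC biliary cells, the lowest, it was 0.0975 (log2 difference 0.86). Between DDC and untreated cells the log2 difference of Cldn1 was 0.08 in hepatocytes and 0.0031 in biliary cells, and neither was called.

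The hepatocyte markers moved with Cldn1 and are given beside it. In deposited TPM, Cldn1 in untreated biliary cells stood at 50.7, 34.7 and 35.5% of the mean of untreated hepatocytes. The median of the 10 hepatocyte markers there was 49.4, 41.8 and 42.2%. In scaled values all 10 were called lower, where 15.6% of all genes tested were. They were also all called lower in DDC biliary cells, where 14.6% of all genes were. In DDC biliary cells Cldn1 was at 38.3, 41.4 and 24.0% of the DDC hepatocyte mean and the markers' median at 28.4, 51.2 and 27.8%. In reprogrammed cells Cldn1 was at 51.6, 83.4 and 54.2% and the markers' median at 49.8, 93.8 and 65.8%. In scaled values 8 of the 10 were called lower there, where 5.80% of all genes were. In deposited TPM the means of the 10 markers were at 59.1 to 83.7%. In library 2 of the untreated biliary cells Cldn1 was below each of the 10 markers. Library 2 of the reprogrammed cells was the highest for both. The part of hepatocyte RNA in the Cldn1 level of biliary and reprogrammed cells was not tested.

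Cldn2, the pore-forming claudin, was called different with treatment in biliary cells and not in hepatocytes. It was 43.1, 45.8 and 47.7 scaled TPM in untreated and 284, 243 and 257 in DDC biliary cells. It was 229.8, 147 and 181 in reprogrammed cells, and 85.6, 119 and 77.8 in untreated and 92.1, 55.5 and 73.8 in DDC hepatocytes. The DDC biliary libraries were the highest and the reprogrammed libraries the next, with no overlap between them or with any other group. The 2 hepatocyte groups overlapped, and the untreated biliary libraries were the lowest. In biliary cells the DDC mean was 5.74 times the untreated mean (log2 difference 2.49, SE 0.20, adjusted p = 2.63e-06). In hepatocytes the difference was -0.35 and not called (adjusted p = 0.226). The difference between these DDC responses was itself tested and called (log2 difference 2.85, SE 0.29, adjusted p = 4.31e-05). Reprogrammed cells had 2.52 times the Cldn2 mean of DDC hepatocytes (log2 difference 1.33, SE 0.20, adjusted p = 0.000209). They were not called different from DDC biliary cells (log2 difference -0.51, adjusted p = 0.11). Between untreated cell types Cldn2 was lower in biliary cells (log2 difference -1.01, SE 0.20, adjusted p = 0.000684), but in TPM as deposited the sign was reversed, at 0.24. That call also fell under the size limit without library 2 of the untreated hepatocytes (-0.84) or library 1 of the untreated biliary cells (-0.97). Cldn2 was 0.98 higher in reprogrammed cells than in untreated hepatocytes, just under the size for a call. Without library 2 of either group it was called, at 1.13 and 1.14.

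Cldn3, a sealing claudin, had the highest mean of the 7 claudins in 4 of the 5 groups, all but DDC biliary cells, and its means varied least of the 7 between biliary and reprogrammed cells. It was 149, 128 and 140.3 scaled TPM in untreated hepatocytes and 226, 218 and 269.7 in DDC hepatocytes. It was 293, 258 and 301 in untreated biliary cells, 254, 277 and 348 in reprogrammed and 251, 306 and 334 in DDC biliary cells. In scaled values untreated hepatocytes were below all other libraries, and each of the other 4 groups overlapped its neighbours in the order of means. Cldn3 was called higher in untreated biliary cells than in untreated hepatocytes (log2 difference 1.02, SE 0.14, adjusted p = 3.94e-05), close to the size limit. It fell under that limit without library 2 of the untreated hepatocytes (0.95) and without library 1 (0.994) or library 3 (0.98) of the untreated biliary cells. Between reprogrammed cells and untreated hepatocytes it was called too (log2 difference 1.05, SE 0.14, adjusted p = 3.67e-05), but not without library 3 of the reprogrammed cells (0.92) or library 2 of the untreated hepatocytes (0.99). In DDC against untreated hepatocytes the log2 difference was 0.76 (adjusted p = 0.00187), under the size for a call. The libraries did not overlap, but of all genes tested 20.6% lay above and 18.3% below without overlap in this comparison. Beside its neighbour Cldn4, which was at 0 in untreated hepatocytes, Cldn3 was at 139 there. In TPM as deposited, the log2 difference of Cldn3 between DDC and untreated hepatocytes was 1.018, which was called. With that setting Cldn3 was also called higher in reprogrammed (1.09) and DDC biliary cells (1.432) than in DDC hepatocytes.

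Cldn12, a claudin without the usual C-terminal binding motif for scaffold proteins, was not called in any comparison. It was 54.8, 56.4 and 50.9 in untreated hepatocytes, 33.8, 50.3 and 43.0 in DDC hepatocytes and 33.5, 30.4 and 31.2 in untreated biliary cells. Reprogrammed cells had 28.1, 36.9 and 29.4 and DDC biliary cells 27.6, 30.8 and 26.5. Untreated hepatocytes were above every other library, but in TPM as deposited Cldn12 was 0.49 higher on the log2 scale in untreated biliary cells than in untreated hepatocytes, against -0.75 after scaling. Its direction between cell types thus depended on the scaling.

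Ocln, the occludin gene, was lowest in untreated hepatocytes, at 23.3, 17.4 and 15.4 scaled TPM. It was 33.5, 49.6 and 42.5 in DDC hepatocytes, 47.3, 51.9 and 51.9 in untreated biliary cells, 45.1, 49.7 and 50.6 in reprogrammed and 48.0, 51.5 and 58.8 in DDC biliary cells. In scaled values the 2 biliary groups, the reprogrammed cells and the DDC hepatocytes overlapped in turn, and all were above the untreated hepatocytes. Ocln was called higher in untreated biliary cells than in untreated hepatocytes (log2 difference 1.40, SE 0.16, adjusted p = 5.23e-06) and in DDC than in untreated hepatocytes (log2 difference 1.12, SE 0.16, adjusted p = 0.000208). Without library 2 of the DDC hepatocytes the second difference was 0.996, just under the size for a call. Between DDC and untreated biliary cells the log2 difference of Ocln was 0.06, which was not called. The overlap of DDC hepatocytes with reprogrammed cells depended on the scaling. In TPM as deposited, Ocln was 25.9, 34.3 and 27.4 in DDC hepatocytes and 62.5, 52.6 and 62.6 in reprogrammed cells. On those values it was called higher in reprogrammed (log2 difference 1.002) and DDC biliary cells (1.435) than in DDC hepatocytes.

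Tjp1, the gene of the scaffold protein ZO-1, had the least spread of the 9 between libraries of the untreated groups, relative to its mean. It was 14.7, 14.8 and 14.1 in untreated hepatocytes and 40.7, 40.7 and 41.0 in untreated biliary cells. Under DDC it was 21.8, 30.8 and 17.0 in hepatocytes, 39.2, 30.9 and 30.9 in reprogrammed cells and 43.9, 39.5 and 45.3 in biliary cells. The biliary groups overlapped at the top, and reprogrammed cells, DDC hepatocytes and untreated hepatocytes followed in that order without overlap, the first 2 only narrowly. Tjp1 was called higher in untreated biliary cells than in untreated hepatocytes (log2 difference 1.43, SE 0.17, adjusted p = 6.71e-06) and in reprogrammed cells than in untreated hepatocytes (log2 difference 1.15, SE 0.17, adjusted p = 5.41e-05). Between the DDC cell types it was 0.90 higher in biliary cells, under the size for a call, and 1.11 without library 2 of the DDC hepatocytes. In TPM as deposited, Tjp1 was called higher in DDC biliary (1.978) and reprogrammed cells (1.316) than in DDC hepatocytes.

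The comparison of the untreated cell types gives the reference for the reprogrammed cells. Of the 9 members, 6 were called higher in untreated biliary cells (Cldn3, Cldn4, Cldn6, Cldn7, Ocln and Tjp1) and 2 lower (Cldn1 and Cldn2), against 37.2% of all genes tested called in either direction, 21.6% higher and 15.6% lower. The median log2 difference of the members was 1.4, and 0.124 over all genes tested. The difference of Cldn2 in TPM as deposited had the other sign, as given above. Between the DDC cell types 4 members were called higher in biliary cells (Cldn2, Cldn4, Cldn6 and Cldn7) and 1 lower (Cldn1), against 34.7% of all genes called, 20.1% higher and 14.6% lower. With TPM as deposited, 7 were called higher there and 1 lower, where 7142 and 645 of all 13905 genes were. The mean of Cldn6 was 43.3 times higher in DDC biliary cells than in DDC hepatocytes (log2 difference 5.07, SE 0.38, adjusted p = 1.94e-07), that of Cldn4 31.5 times (log2 difference 5.09, SE 0.47, adjusted p = 1.15e-06) and that of Cldn7 24.2 times (log2 difference 4.85, SE 0.46, adjusted p = 1.4e-06). Without library 1 of the DDC hepatocytes the ratios were 57.2 for Cldn4 and 55.8 for Cldn7. Cldn2 was 3.54 times higher (log2 difference 1.84, SE 0.20, adjusted p = 5.38e-06).

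Reprogrammed cells were compared with the DDC hepatocytes, with the DDC biliary cells and with the untreated hepatocytes. All 3 comparisons share the reprogrammed libraries. Against DDC hepatocytes, 4 members were called higher (Cldn2, Cldn4, Cldn6 and Cldn7) and 1 lower (Cldn1). In TPM as deposited 7 were called higher and 0 lower, where 4240 and 9 of all 13905 genes were. In scaled values 19.5% of all genes were called, 13.7% higher and 5.80% lower, and the members' median log2 difference was 0.55 against 0.0568 over all genes. Against DDC biliary cells, only Cldn1 was called, as higher, where 3.63% of all genes were called in either direction and 2.91% higher. The members' median there was -0.323, and -0.0513 over all genes. Against untreated hepatocytes, 6 members were higher (Cldn3, Cldn4, Cldn6, Cldn7, Ocln and Tjp1) and 1 lower (Cldn1). In TPM as deposited 7 were called higher and 0 lower, where 6356 and 446 of all 13905 genes were. In scaled values 33.0% of all genes were called, 20.6% higher and 12.4% lower. In TPM as deposited, the difference of Cldn1 was -0.34 (adjusted p = 0.165) in that last comparison. The number of all genes called between reprogrammed and DDC biliary cells rested on few libraries: it was 505, and 132 without library 2 of the reprogrammed cells, 839 without their library 1 and 100 without library 3 of the DDC biliary cells.

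**Figure D3:**
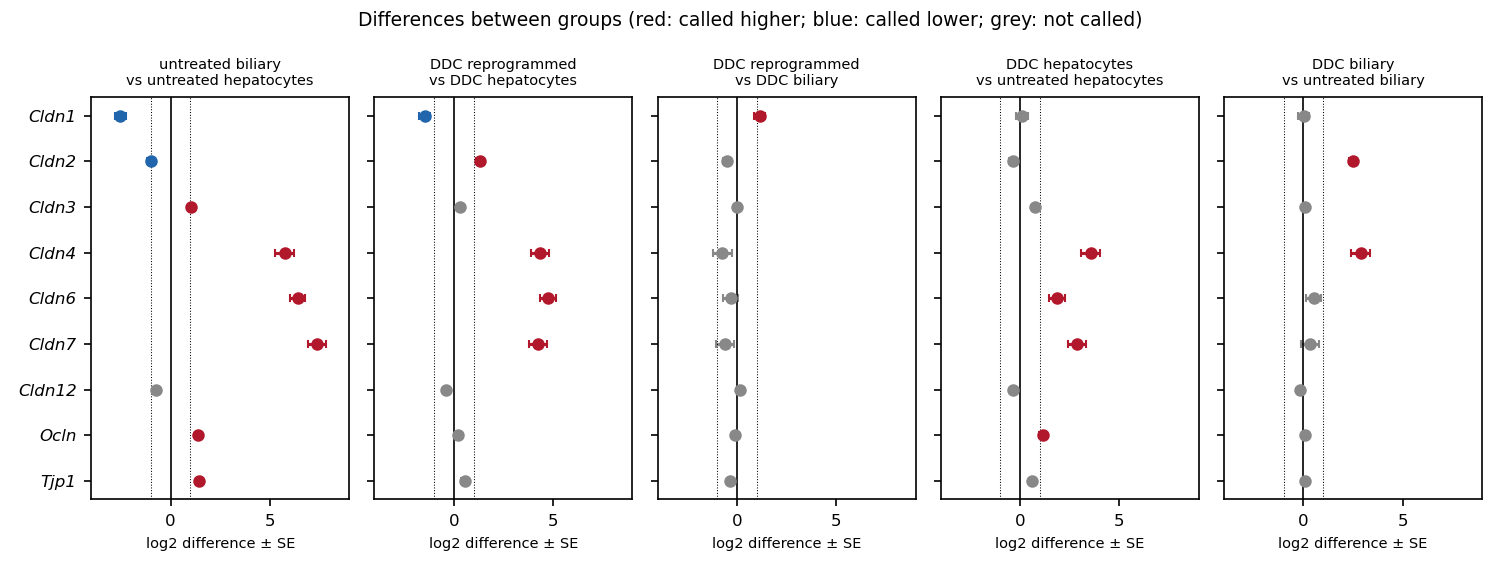
Log2 difference of log2(scaled TPM + 1) ± SE for the 9 genes in 5 comparisons, with dotted lines at -1 and 1; red is called higher, blue called lower and grey not called. Cldn4, Cldn6 and Cldn7 are called higher in untreated biliary cells, in reprogrammed cells against DDC hepatocytes and in DDC against untreated hepatocytes; where untreated hepatocytes are the reference these 3 sizes depend on the pseudocount.

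DDC was compared with no treatment within each cell type. In hepatocytes, 4 members were called higher under DDC (Cldn4, Cldn6, Cldn7 and Ocln) and none lower, where 6.62% of all genes tested were called higher and 4.39% lower. The median over the 9 members was 0.762, and 0.0184 over all genes. In biliary cells, 2 members were called higher (Cldn2 and Cldn4) and none lower, where 10.4% of all genes were called, 5.63% higher and 4.78% lower, and the members' median was 0.0688. The difference between the DDC responses was called for 3 members, where 8.42% of all genes were called, 3.39% with a larger and 5.03% with a smaller response in biliary cells. On the log2 scale the difference was positive, for a larger response in biliary cells, for Cldn2 and negative for Cldn7 (-2.54, adjusted p = 0.0209) and Ocln (-1.06, adjusted p = 0.00679). Cldn7 lost this call without library 3 of the untreated biliary cells (adjusted p = 0.0531), and Cldn6 gained it without library 2 of the DDC hepatocytes (adjusted p = 0.0174) and with the replicate number as a block within treatment (adjusted p = 0.0309), against 0.134. With TPM as deposited the adjusted p for Cldn7 was 0.0765, and with a pseudocount of 5 it was 0.204 (log2 difference -0.951). For Cldn7 this is a comparison against a group listed at 0 in hepatocytes. Ocln was under the size limit with quantile normalization (-0.775), sample weights (-0.936) and a pseudocount of 5 (-0.926), and without library 1 of the DDC biliary cells (-0.999), library 2 of the DDC hepatocytes (-0.94) or library 3 of the untreated hepatocytes (-0.94).

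The claudin makeup of a library needs no scaling between libraries, since it is a share within each. The 7 claudins summed to 217.1 to 245.4 deposited TPM in untreated hepatocytes, 308.8 to 391.5 in DDC hepatocytes, 897.7 to 1080 in untreated biliary cells, 978.6 to 1533 in the reprogrammed libraries and 1704 to 2625 in DDC biliary cells. They held between 90.1 and 98.1% of the TPM of all 23 claudin genes in the table. In untreated hepatocytes Cldn3 held 35.5 ± 3.16% (SD, n = 3) of the sum, Cldn1 26.9 ± 2.33%, Cldn2 23.9 ± 4.92% and Cldn12 13.7 ± 0.317%. In untreated biliary cells Cldn3 still led with 41.4 ± 1.82%, but Cldn7 was the second with 24.4 ± 0.845% and Cldn6 the third with 12.3 ± 1.3%, while Cldn1 held 2.6 ± 0.78%.

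Under DDC the biliary cells had another makeup. Cldn4 took 23.4, 32.4 and 34.2% of the sum in the 3 DDC biliary libraries, against 6.7, 6.3 and 10.9% in the untreated ones, and Cldn3 took 22.2, 22.7 and 21% against 43.5, 40.7 and 40%. The groups did not overlap for either gene. Cldn2 took 25.1, 18 and 16.2% against 6.38, 7.24 and 6.35%. In DDC hepatocytes Cldn3 held 48.5 ± 3.81% and Cldn1 22.9 ± 2.53%, and Cldn4, Cldn6 and Cldn7 held 2.62 ± 2.04%, 0.584 ± 0.332% and 1.71 ± 1.68%. Without library 1 of the DDC hepatocytes Cldn4 held 1.47% and Cldn7 0.754%. In reprogrammed cells the order was Cldn3 (28.2 ± 1.69%), Cldn4 (23.4 ± 4.84%), Cldn2 (18.2 ± 5.13%), Cldn7 (13.4 ± 2.61%), Cldn6 (9.51 ± 2.44%), Cldn1 (4.18 ± 2.18%) and Cldn12 (3.1 ± 0.818%). By mean share Cldn3 led in reprogrammed cells and Cldn4 in DDC biliary cells, where in library 1 Cldn2 was above Cldn4. Each share was compared between groups by an exact two-sided permutation test of 3 against 3 libraries, whose smallest p is 0.1. Of 49 tests, 39 reached that value, and the lowest Benjamini-Hochberg adjusted value was 0.126, so none could pass 0.05 in this design.

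**Figure D4:**
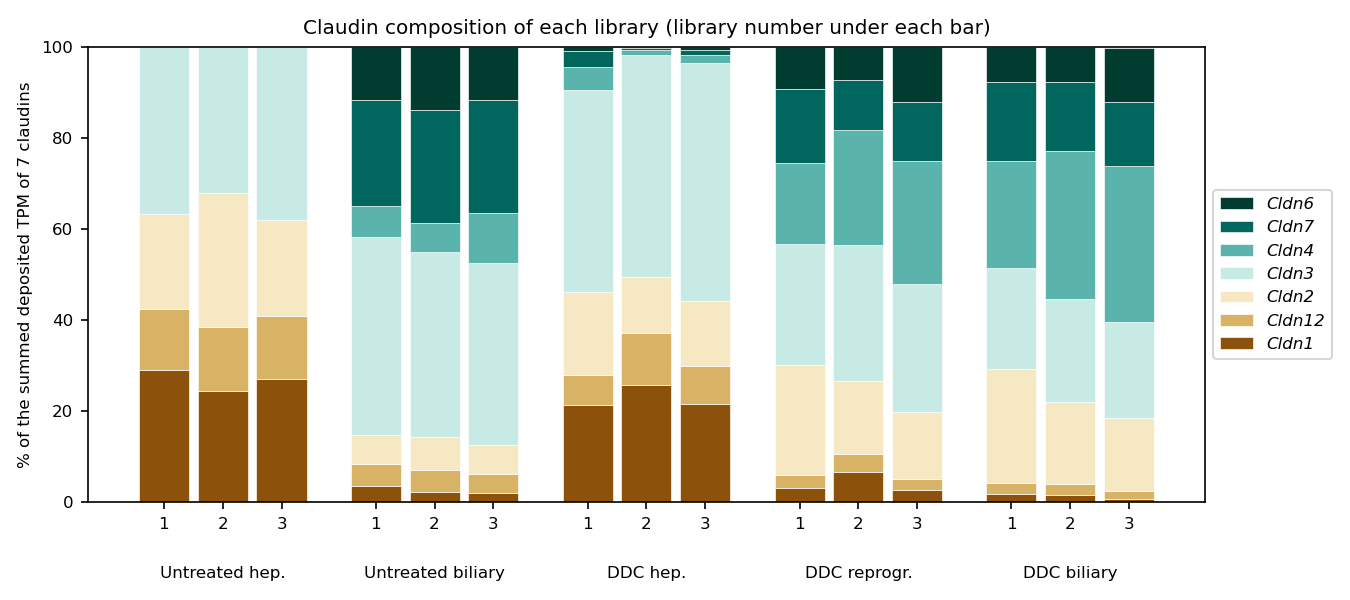
Stacked bars give the percent of the summed deposited TPM of 7 claudins that each claudin held in each of the 15 libraries. Cldn4, Cldn6 and Cldn7 together are absent from the untreated hepatocyte bars, thin in the DDC hepatocyte bars and thick in the other groups, and Cldn4 takes 30% on average in DDC biliary cells.

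The place of each reprogrammed library between the DDC cell types was computed for the 5 members whose DDC cell types differed by at least 1 on the log2 scale, with 0 for the mean of DDC hepatocytes and 1 for that of DDC biliary cells. Cldn4 lay at 0.76, 0.85 and 0.95, Cldn6 at 0.91, 0.84 and 1.06, and Cldn7 at 0.91, 0.79 and 0.92. Cldn2 lay at 0.90, 0.55 and 0.71. Cldn1, the member that is high in hepatocytes, lay at 0.73, 0.32 and 0.64. Positions on the log2 scale depend on the size and direction of a gene's difference and give no order between genes: on the linear scale the means lay at 0.58 for Cldn4, 0.60 for Cldn2, 0.65 for Cldn7, 0.75 for Cldn1 and 0.79 for Cldn6. The biliary markers had mean positions from 0.74 to 0.90 and the hepatocyte markers from 0.46 to 0.63. The mean of Cldn1, 0.56, lay within the range of the hepatocyte markers, those of Cldn4 and Cldn7, 0.85 and 0.87, within that of the biliary markers, that of Cldn6, 0.94, above it and that of Cldn2, 0.72, just below it. Library 2 was the lowest of the 3 for Cldn1, Cldn2, Cldn6 and Cldn7, for every hepatocyte marker and for every biliary marker but Krt7. These positions are a description without a test.

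**Figure D5:**
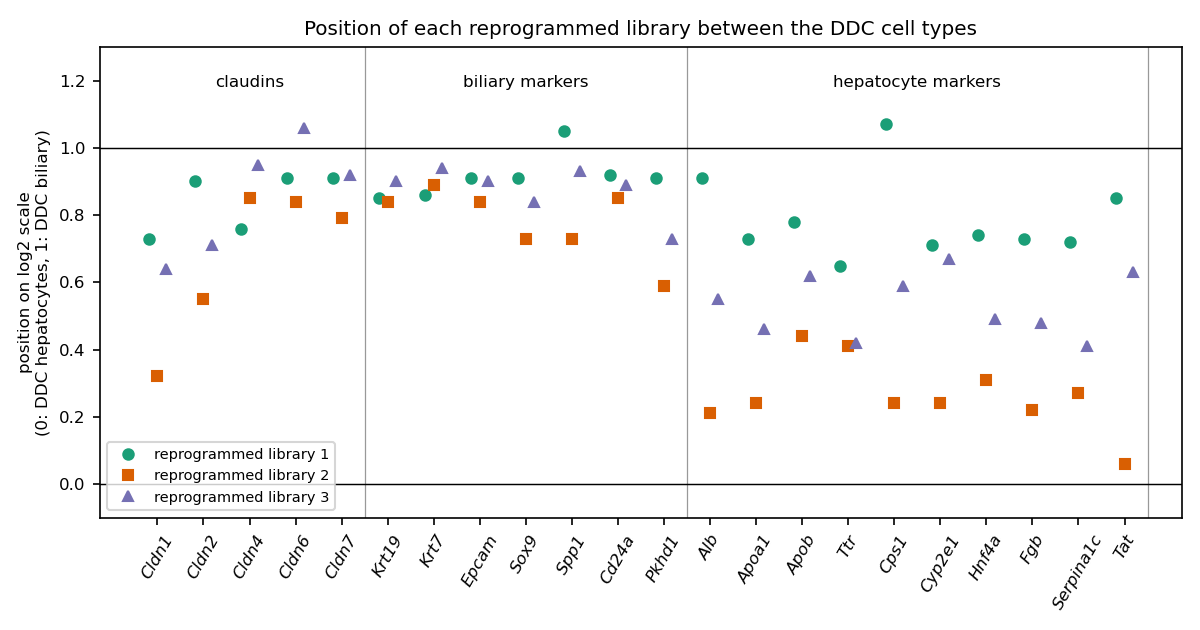
Position of each reprogrammed library on the log2 scale between the mean of DDC hepatocytes (0) and the mean of DDC biliary cells (1), for 5 claudins, 7 biliary markers and 10 hepatocyte markers, with a symbol per library. Cldn4, Cldn6 and Cldn7 lie between 0.76 and 1.06, and Cldn1 lies between 0.32 and 0.73.

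Over the 15 libraries, the genes whose profile was most like that of a member were found among 9453 genes of at least 10 scaled TPM in their highest group, by Pearson's r of log2(scaled TPM + 1). These values describe libraries that fall into 5 groups, so an r near 1 is easily reached. The 3 genes most like Cldn1 were Acot12, Pgm2 and Mst1, all at r = 0.995. Cldn7 was followed by St14 (0.998), which codes for the membrane protease matriptase, Tmsb10 (0.997) and Bex3 (0.994). Cldn4 was followed by Sfn (0.993), which codes for 14-3-3 sigma, Tubb2b (0.991) and Lrrc8b (0.989), and Cldn6 by Tmsb4x (0.996), Sparc (0.995) and Glis2 (0.994). Cldn2 had no such close match: Jak3 (0.943), Nos2 (0.924) and Ccng1 (0.921) came nearest. Cldn3 was nearest to Cyth2 (0.973), Cldn12 to Usp38 (0.985), Ocln to Crim1 (0.979) and Tjp1 to Cpd (0.981). Among the members, Cldn6 and Cldn7 were the most alike (r = 0.987), and the neighbours Cldn3 and Cldn4 stood at 0.899.

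Of the 18 other claudins listed, 17 were in the table and 6 passed the filter. Cldn8, a sealing claudin of the kidney's collecting duct, was at 48.5 ± 5.86 scaled TPM in untreated biliary cells and 17.5 ± 2.59 in DDC biliary cells (log2 difference -1.42, SE 0.16, adjusted p = 3.56e-05). It was 6.52 ± 1.56 in reprogrammed cells, lower than in DDC biliary cells (log2 difference -1.31, SE 0.16, adjusted p = 0.00259), and at most 0.0841 in any hepatocyte library. Its direction under DDC was thus opposite to that of Cldn2 and Cldn4 in biliary cells. Cldn10 was 5.33, 7.72 and 3.96 in untreated biliary cells, was listed at 0 in all hepatocyte and reprogrammed libraries and was 0.503, 0.141 and 0 in DDC biliary cells (adjusted p = 1.73e-06). Cldn23 was listed at 0 in untreated hepatocytes and was 7.55 ± 1.58 in untreated biliary cells. Cldn14, like Cldn1, was called lower in biliary cells than in hepatocytes of the same treatment. It was 15.2, 19.8 and 25.0 in untreated hepatocytes, 3.53 ± 0.647 in untreated biliary cells (log2 difference -2.19, SE 0.29, adjusted p = 2.22e-05) and 5.95 ± 1.28 in reprogrammed cells. Between the DDC cell types its log2 difference was -1.56, and -0.618 in TPM as deposited. In reprogrammed cells against DDC hepatocytes Cldn14 was not called lower, unlike Cldn1 in scaled values. The endothelial claudin Cldn5 averaged at most 1.27 in any group.

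Other membrane proteins of tight junctions were measured too. Of 12 tested, 7 were called higher and none lower in untreated biliary cells, where 21.6% of all genes were higher and 15.6% lower. Their median log2 difference was 1.04 against 0.124 over all genes. Ildr1, a tricellular junction gene, was listed at 0 in untreated hepatocytes and was 22.8 ± 1.45 in untreated biliary cells, 7.17 ± 2.29 in reprogrammed and 17.3 ± 3.15 in DDC biliary cells, and the last 2 differed (log2 difference -1.19, SE 0.19, adjusted p = 0.00497). Marveld3, a relative of occludin, was 0.989 ± 0.218 in untreated hepatocytes and 21.7 ± 1.45 in untreated biliary cells (log2 difference 3.52, SE 0.14, adjusted p = 3.02e-10). In DDC against untreated hepatocytes 4 of the 12 were higher: Ildr2 (1.74), F11r, which codes for the adhesion molecule JAM-A (1.26), Marveld2, which codes for tricellulin (1.25), and Cxadr, a virus receptor of the junction (1.12, all log2). Of all genes tested, 6.62% were called higher in that comparison. For Marveld2 the DDC response differed between the cell types, being smaller in biliary cells (log2 difference -1.18, adjusted p = 0.000868). None of the 12 was called between DDC and untreated biliary cells, where 10.4% of all genes were called.

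Among the genes of the cytoplasmic plaque and of polarity, 24 were tested. Of these, 13 were called higher and none lower in untreated biliary cells, 6 higher in reprogrammed cells against DDC hepatocytes, and none in either direction between reprogrammed and DDC biliary cells. In TPM as deposited these counts were 23 higher, 15 higher and 2 lower. Of all 13905 genes, TPM as deposited gave 7350 higher, 4240 higher and 576 lower in the same comparisons. Of all genes in scaled values, 21.6% were called higher in the first comparison and 13.7% higher in the second. In the last, 3.63% of all genes were called in either direction, so few calls are usual there. Amotl1, an angiomotin family gene, was 0.0414 ± 0.0209 in untreated hepatocytes, 26.5 ± 1.51 in untreated biliary cells and 11.2 ± 2.01 in reprogrammed cells, the last being higher than the 0.114 ± 0.0729 of DDC hepatocytes (log2 difference 3.44, SE 0.14, adjusted p = 1.55e-09). Arhgef2, which codes for the junction-bound factor GEF-H1, averaged 1.95 ± 1.15 in DDC hepatocytes but 15.7 ± 2.36 in the reprogrammed libraries (log2 difference 2.56, SE 0.22, adjusted p = 1.03e-06). Pard6b, of the apical polarity complex, was 8.52 ± 1.91 and 23.8 ± 3.38 in the same groups (log2 difference 1.39, SE 0.17, adjusted p = 2.46e-05).

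Among 17 genes of adherens junctions and desmosomes, 9 were higher and 3 lower in untreated biliary cells, where 21.6% of all genes were higher and 15.6% lower. In TPM as deposited 13 were higher and 0 lower, where 7350 and 470 of all 13905 genes were. The cadherins Cdh1 and Cdh2 ran in opposite directions. Cdh1, E-cadherin, was 100.5, 88.1 and 87.5 scaled TPM in DDC hepatocytes, 272, 205 and 242 in reprogrammed and 350.0, 325 and 383 in DDC biliary cells, with no overlap. Cdh2, N-cadherin, was 76.3, 63.6 and 65.4 in DDC hepatocytes, 49.0, 46.8 and 51.0 in reprogrammed and 20.8, 22.8 and 18.8 in DDC biliary cells, also with no overlap. Cdh2 was called higher in reprogrammed than in DDC biliary cells (log2 difference 1.20, SE 0.09, adjusted p = 0.000133), a difference of 0.897 in TPM as deposited, and Cdh1 higher in the reprogrammed than in the DDC hepatocyte libraries (log2 difference 1.36, SE 0.25, adjusted p = 0.000754). For Cdh2 this order depended on the scaling: in TPM as deposited its mean was 60.2 ± 9.53 in reprogrammed cells, 48.3 ± 9.20 in DDC hepatocytes and 31.6 ± 0.569 in DDC biliary cells.

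Regulators of epithelial junction genes were also measured. Of 12 tested, 8 were higher and 2 lower in untreated biliary cells, where 21.6% of all genes were higher and 15.6% lower. In TPM as deposited 9 were higher and 0 lower, where 7350 and 470 of all 13905 genes were. Grhl2, a grainyhead factor known to act on claudin genes in epithelia, was listed at 0 in untreated hepatocytes, and was 18.6, 20.1 and 19.9 in untreated biliary cells, 8.15, 5.82 and 7.78 in reprogrammed and 15.5, 13.5 and 17.8 in DDC biliary cells. All reprogrammed libraries were below all biliary libraries (log2 difference -1.01, SE 0.13, adjusted p = 0.00309 against DDC biliary cells). Ehf, an ETS factor of epithelia, was 1.03 ± 0.333 in DDC hepatocytes but 69.4 ± 15.7 in the reprogrammed libraries (log2 difference 5.10, SE 0.16, adjusted p = 2.64e-10). Snai2, of the Snail family of repressors, ran with Cldn1, at 9.19 ± 3.79 in DDC hepatocytes but 3.03 ± 1.59 in the reprogrammed libraries (log2 difference -1.34, SE 0.34, adjusted p = 0.00563), a difference of -0.683 in TPM as deposited. It was the only 1 of 3 tested repressors called in that comparison, where 5.80% of all genes were called lower. The hepatocyte factor gene Hnf4a was 302 ± 44.7 in DDC hepatocytes, 147 ± 44.1 in reprogrammed and 71.3 ± 13.0 in DDC biliary cells. The sizes of these differences depended on the scaling. Reprogrammed cells stood at a log2 difference of -1.06 from DDC hepatocytes, and at -0.265 in TPM as deposited (limma adjusted p = 0.117). From DDC biliary cells they stood at 1.01, and at 0.695 in TPM as deposited.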

How the data were processed

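RNA-seq of sorted cells gave 15 libraries in 5 groups of 3, and groups were taken from the labels. The authors quantified genes with Salmon against mm10 and deposited TPM, per the submitters' processing notes; the Salmon version and the annotation are not given in the sources used here. Scale factors were medians of ratios to the geometric mean over 12427 genes above 0 in every library. Genes with at least 1 TPM in at least 3 libraries were kept (13905 of 24493), and log2(scaled TPM + 1) was tested with limma 3.58.1 (R 4.3.3) in 1 fit of all 5 groups, with 10 residual degrees of freedom. The code was tested on simulated data. TPM keep no read totals, so no counting interval is given. The members and lists were chosen with earlier results of these data known. All 9 members are named, and from each other junction list up to 4 called genes per comparison by size, if the higher group averaged 5 scaled TPM or more, besides Grhl2, Cdh1, Cdh2, Hnf4a, Krt19 and Cldn5. Some listed genes are not reported here. Single biliary markers were named after their values were seen. Pairing was checked by correlating the deviations of same-numbered libraries from their group means. This gave 0.151 to 0.237 between the untreated groups, 0.136 to 0.449 between DDC hepatocytes and reprogrammed cells, 0.208 to 0.456 between reprogrammed and DDC biliary cells, and 0.043 to 0.319 between DDC hepatocytes and DDC biliary cells. Alternatives were scaling, pseudocount, filter, trend, weights, replicate block, the groups fitted and leaving out each library.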

Additional observations from a re-analysis of the deposited data

Results flagged for a closer look

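In 3 members the response to DDC, tested as an interaction in limma, was called different between biliary cells and hepatocytes. For Cldn2 the biliary response exceeded the hepatocyte response by 2.845 on the log2 scale (adjusted p = 4.31e-05). On that scale the Cldn7 response was smaller in biliary cells, with a difference of -2.544 (adjusted p = 0.0209), and so was that of Ocln, with -1.062 (adjusted p = 0.00679). The 2 hepatocyte groups and the 2 biliary groups of this test are also used in the other comparisons. The Cldn7 result depends on the pseudocount, as Cldn7 was listed at 0 in untreated hepatocytes: with a pseudocount of 5 it was -0.951 (adjusted p = 0.204). It was -1.86 without library 1 and -3.20 without library 2 of the DDC hepatocytes.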

How the results depend on the processing

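Alternative settings gave 1916 values for the 72 differences of the members. Of these, 1825 kept their direction and side of the threshold, 34 lost and 29 gained the call, and 28 had the other sign. In TPM as deposited, Cldn2 was 0.245 in untreated biliary cells against hepatocytes, and Cldn12 was 0.4922 in that comparison, 0.5385 between DDC biliary cells and hepatocytes, 0.3681 and 0.2633 in reprogrammed cells against DDC and untreated hepatocytes, and -0.1704 against DDC biliary cells. Between reprogrammed and DDC biliary cells Cldn3 was 0.03606 with the compared groups only and 0.1579 with sample weights, and Cldn6 was 0.1067 with weights. Cldn1 was -0.1367 with weights in DDC against untreated biliary cells, and the Cldn4 interaction was 1.089 with a pseudocount of 5. Leaving out a library gave -0.1528 to 0.0753 for Cldn3 and -0.6412 to 0.01496 for Cldn6 in reprogrammed against DDC biliary cells, -0.19 to 0.2874 for Cldn1, -0.03224 to 0.1715 for Cldn3 and -0.01783 to 0.1231 for Ocln in DDC against untreated biliary cells, and -0.2778 to 0.202 for the Cldn1 interaction. None of these last was called. The cause was not tested.

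Members called between the DDC cell types numbered 8 in TPM as deposited against 5. Between reprogrammed and DDC biliary cells it was 0 against 1 in TPM as deposited, with a pseudocount of 5 and with the compared groups only; limma called 306 and 6 genes of all in the last 2. In DDC against untreated hepatocytes it was 2 against 4 with a pseudocount of 5, and for the interaction 5 with a pseudocount of 0.1 and 1 with 5, against 3. Leaving out a library, members called ranged from 6 to 8 between the untreated cell types, 5 to 6 between the DDC cell types, 5 to 5 and 0 to 1 in reprogrammed cells against DDC hepatocytes and DDC biliary cells, 6 to 8 against untreated hepatocytes, 3 to 4 and 2 to 2 for DDC in hepatocytes and biliary cells, and 2 to 3 for the interaction. The replicate block within treatment added only Cldn6 to the interaction (-1.343, adjusted p = 0.0309) and changed no other call of a member.

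Over all genes tested, called genes higher and lower were 2998 and 2170 against 7350 and 470 in TPM as deposited between the untreated cell types. The same counts were 2792 and 2028 against 7142 and 645 between the DDC cell types, and 1901 and 807 against 4240 and 9 in reprogrammed cells against DDC hepatocytes. They were 404 and 101 against 120 and 576 (quantile normalization 381 and 164) against DDC biliary cells, 2863 and 1731 against 6356 and 446 against untreated hepatocytes, and 921 and 610 against 1036 and 360 for DDC in hepatocytes. A pseudocount of 5 gave 3369, 3030, 1482, 306, 2762, 795, 748 and 585 called genes in the comparisons as ordered above, then DDC in biliary cells and the interaction, against 5168, 4820, 2708, 505, 4594, 1531, 1447 and 1171. The adjusted p alone gave 9298, 9102, 6614, 2062, 8798, 3859, 3645 and 1784. A pseudocount of 0.1 gave 2334 for DDC in hepatocytes, and sample weights gave 804 between reprogrammed and DDC biliary cells. A group size of 3 and unknown depth limit the precision of every value.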

Other observations

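The gap junction genes code for connexins, which form channels between cells beside the tight junctions. Of 7 tested, 1 was called higher and 2 lower in untreated biliary cells than in untreated hepatocytes. Of all genes tested, 37.2% were called there, 21.6% higher and 15.6% lower. In TPM as deposited, 1 of the 7 was higher and 1 lower, where 7350 and 470 of all 13905 genes were. Gjb1, the main hepatocyte connexin, was 672, 696 and 847 scaled TPM in DDC hepatocytes, 259.5, 409.7 and 327 in reprogrammed cells and 192, 177 and 111 in DDC biliary cells. The groups did not overlap, and reprogrammed cells were called lower than DDC hepatocytes (log2 difference -1.17, SE 0.21, adjusted p = 0.000683) and higher than DDC biliary cells (log2 difference 1.06, SE 0.21, adjusted p = 0.00977). Gjb1 in TPM as deposited was -0.368 and 0.746 in these comparisons, both under the size for a call. Gja1, the connexin of many non-hepatocyte cells, was 61.1, 65.2 and 60.1 in untreated and 31.2, 13.4 and 23.8 in DDC biliary cells (log2 difference -1.48, SE 0.31, adjusted p = 0.00349), and at most 0.176 in any hepatocyte library.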
